A study of Mus musculus with 3 samples.

Results

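Scand1, C2cd4b, Nrtn, Fgfbp3, Rab5if, 1110065P20Rik and 0610012G03Rik were 7 genes, of 21935 lines in the expression table, that had few reads in the control library and several times more in both siRNA libraries. They were chosen by name for that pattern, so their differences from the control library are given as a description, with no test. Scand1 and C2cd4b had the fewest control reads of the 7, with 12 each. Their levels per length there, FPKMs of 1.18 and 0.713, were low but not near absent. They were above those of 28.8% and 25.04% of the genes with reads in that library. 0610012G03Rik had 107 control reads. Its FPKM there, 5.84, was above that of 53.7% of those genes.

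The RNA came from MIN6, an insulin-producing line grown from a mouse insulinoma and widely used in place of primary beta cells. All cultures were transfected, with a negative control siRNA (library siNC), with siRNA to Srsf1 (library siSRSF1) or with siRNA to Srsf2 (library siSRSF2). With 1 library per group, the groups and the libraries cannot be told apart, no p-value is given, and intervals cover counting error only. The labels name 1 cell line and do not say how long after transfection the cells were collected.

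SRSF1 and SRSF2 are SR proteins, which bind RNA through RNA recognition motifs, help to define exons during splicing, and take part in transcription, RNA export and translation. The 7 genes are not a pathway. Neurturin (Nrtn) is a secreted growth factor of the GDNF family that signals through GFRA receptors and RET, and FGFBP3 is a secreted protein that binds fibroblast growth factors. C2CD4B is a nuclear protein studied in beta cells, and in humans its gene lies in a region associated with type 2 diabetes. SCAND1 consists largely of a SCAN domain, through which zinc finger proteins pair with each other. RAB5IF is known from human cells as a partner of RAB5 and of a membrane protein insertion complex at the endoplasmic reticulum. No role is given here for the proteins of 1110065P20Rik and 0610012G03Rik.

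What 6 of the 7 shared beyond the choice was a coding sequence very rich in G and C. The 90 bases of highest GC content within a single coding exon are shown for each gene, because the results below turn on base composition. They read 5' to 3' on the strand of the gene, and capitals mark CpG dinucleotides. The sequences are from the GENCODE M21 transcripts (GRCm38).
Scand1: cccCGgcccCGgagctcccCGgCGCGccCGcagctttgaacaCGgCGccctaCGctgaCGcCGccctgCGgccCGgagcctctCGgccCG
C2cd4b: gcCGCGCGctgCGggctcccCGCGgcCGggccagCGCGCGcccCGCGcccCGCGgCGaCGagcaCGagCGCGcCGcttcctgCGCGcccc
Nrtn: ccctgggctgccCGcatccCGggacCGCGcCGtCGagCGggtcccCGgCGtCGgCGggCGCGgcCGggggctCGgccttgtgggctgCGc
Fgfbp3: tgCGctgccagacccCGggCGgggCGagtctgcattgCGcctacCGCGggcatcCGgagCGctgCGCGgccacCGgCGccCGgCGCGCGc
Rab5if: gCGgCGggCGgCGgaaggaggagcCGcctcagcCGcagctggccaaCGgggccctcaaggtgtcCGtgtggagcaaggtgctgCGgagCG
1110065P20Rik: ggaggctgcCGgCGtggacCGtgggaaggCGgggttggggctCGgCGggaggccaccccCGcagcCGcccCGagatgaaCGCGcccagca
0610012G03Rik: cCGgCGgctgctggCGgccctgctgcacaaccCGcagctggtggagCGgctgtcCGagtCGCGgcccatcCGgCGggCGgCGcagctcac
Their places in GRCm38 were chr2:156312153-156312242 (minus strand) for Scand1, chr9:67760253-67760342 (plus strand) for C2cd4b, chr17:56751688-56751777 (minus strand) for Nrtn, chr19:36918877-36918966 (minus strand) for Fgfbp3, chr2:156863308-156863397 (plus strand) for Rab5if, chr4:124850344-124850433 (minus strand) for 1110065P20Rik and chr16:31948351-31948440 (minus strand) for 0610012G03Rik. GC content ran from 74.4% in the Rab5if stretch to 88.9% in the C2cd4b stretch, and the number of CpG dinucleotides from 10 to 22. These stretches were picked for their GC content, which such a choice raises in any gene. In the 200 transcript bases of highest GC content, the 7 genes had 75.5 to 81.5%, against a median of 67.5% in compared genes. There 0610012G03Rik, the lowest, exceeded 78.5% of compared genes, and C2cd4b, the highest, 93.8%. The Rab5if stretch began at base 5 of its coding sequence, and the rest of that coding sequence was less GC-rich, as given below.

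Depth was 12688334 reads in siNC, 14478045 in siSRSF1 and 14682576 in siSRSF2, and 3 reads equalled 0.239, 0.209 and 0.2004 CPM, a read count scaled to a library total common to all libraries. Each siRNA target was lowest in its own library. Srsf2 had 1193, 1302 and 487 reads in siNC, siSRSF1 and siSRSF2, a ratio of 0.343 (95% interval 0.308 to 0.381) in siSRSF2. Srsf1 had 4070, 3171 and 4105 reads, a ratio of 0.683 (0.652 to 0.716) in siSRSF1, a fall of less than 2-fold. In siSRSF2 its ratio was 0.847 (0.811 to 0.884). All 9 beta-cell markers had reads, and so did 4 hormone genes of other islet cells (Gcg, Sst, Ppy and Ghrl), whose summed CPM was 141.9 in siNC, 166 in siSRSF1 and 150.4 in siSRSF2. Most of these were Gcg, with 1494, 2016 and 2029 reads; the part of such cells or transcripts in the results was not tested. The summed CPM of 4 acinar and ductal markers was at most 0.318 in any library and that of 4 fibroblast, endothelial and immune markers at most 0.907; Col3a1 and Cpa1 were at 0 in all 3.

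Scand1 had 12 reads in siNC, 171 in siSRSF1 and 159 in siSRSF2. After scaling these were 0.955, 11.9 and 10.6 CPM. At the shares it held in the siRNA libraries, siNC would have held 149.98 or 133 reads. C2cd4b had 12, 109 and 119 reads, or 0.955, 7.61 and 7.95 CPM. Both genes were thus lowest in the control library by a wide margin and nearly level in the siRNA libraries.

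The secreted factors had slightly more control reads. Nrtn had 26 reads in siNC, 196 in siSRSF1 and 237 in siSRSF2, or 2.07, 13.7 and 15.8 CPM. Fgfbp3 had 27, 96 and 206 reads, or 2.15, 6.70 and 13.8 CPM. In Fgfbp3, siSRSF1 lay between siNC and siSRSF2, and the Poisson intervals of the 3 libraries did not overlap.

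The others were counted more deeply. Rab5if had 63, 534 and 410 reads, or 5.01, 37.3 and 27.4 CPM, and its siRNA libraries did not overlap either, with siSRSF1 the higher. 1110065P20Rik had 52, 219 and 256 reads, or 4.14, 15.3 and 17.1 CPM. 0610012G03Rik had 107, 573 and 523 reads, or 8.51, 39.98 and 34.9 CPM. In each of the 7 genes the 95% Poisson interval of the siNC level lay below those of both siRNA libraries.

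**Figure D1:**
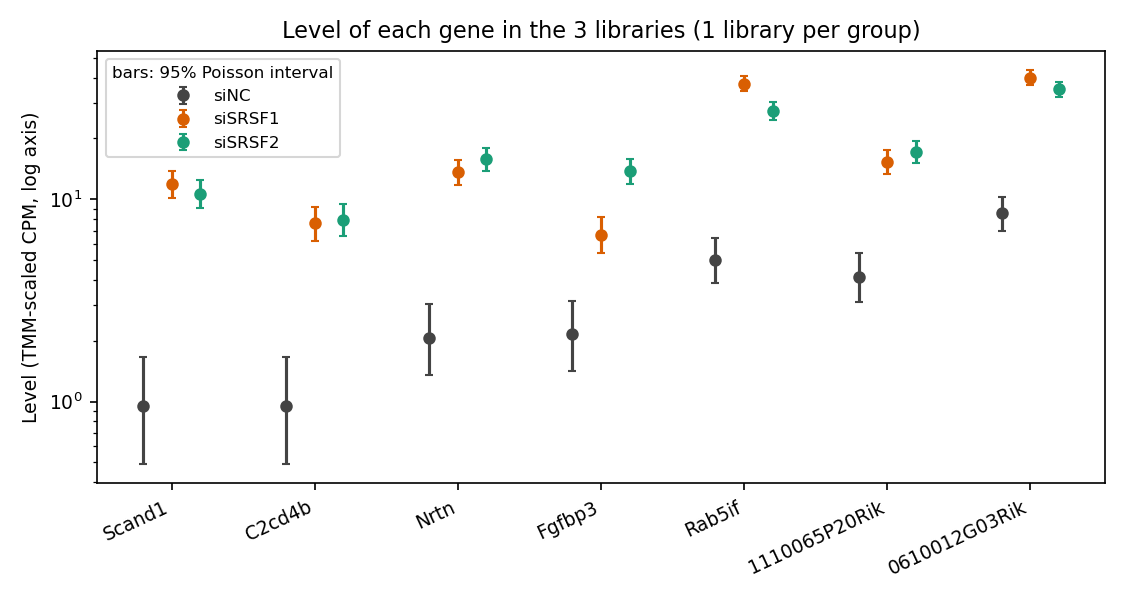
Level of each gene (TMM-scaled CPM, log axis) in siNC, siSRSF1 and siSRSF2, 1 library per group, with 95% Poisson intervals. The siNC point is the lowest for all 7 genes, from 0.955 CPM for Scand1 and C2cd4b to 8.51 CPM for 0610012G03Rik.

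A gene was compared between libraries when it had at least 20 reads in 1 of them, and was called higher or lower when the scaled ratio was at least 2-fold and its interval excluded 1. All 7 genes were called higher in siSRSF1, where 2.4% of 11602 compared genes were called higher, and all 7 in siSRSF2, where 2.51% of 11611 were. These contrasts chose the genes, so nothing is read from the counts. Both ratios also share the siNC library, so they are not separate observations of its low reads.

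The ratio of siSRSF1 to siNC ranged from 3.08 (2.02 to 4.97) for Fgfbp3 to 12.1 (6.97 to 24.7) for Scand1, with a median of 6.51 over the 7 genes and 1.00 over all compared genes. For siSRSF2 to siNC it ranged from 4.09 (3.33 to 5.10) for 0610012G03Rik to 10.8 (6.19 to 21.98) for Scand1, with medians of 6.31 and 1.01. Scand1 ranked at place 3 among all compared genes in both contrasts. Between them in siSRSF1 lay C2cd4b at 7.71 (4.38 to 15.9), Rab5if at 7.39 (5.72 to 9.81) and Nrtn at 6.51 (4.38 to 10.4). 0610012G03Rik followed at 4.68 (3.81 to 5.83) and 1110065P20Rik at 3.67 (2.72 to 5.10). The intervals of Scand1, C2cd4b, Rab5if and Nrtn overlapped, so their order is not resolved by these counts.

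In siSRSF2, C2cd4b stood at 8.06 (4.59 to 16.6), Nrtn at 7.54 (5.09 to 11.96) and Fgfbp3 at 6.31 (4.28 to 9.95). Rab5if stood at 5.43 (4.18 to 7.24) and 1110065P20Rik at 4.11 (3.06 to 5.68). Summed over the 7 genes, siNC held 299 reads, siSRSF1 1898 and siSRSF2 1910.

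**Figure D2:**
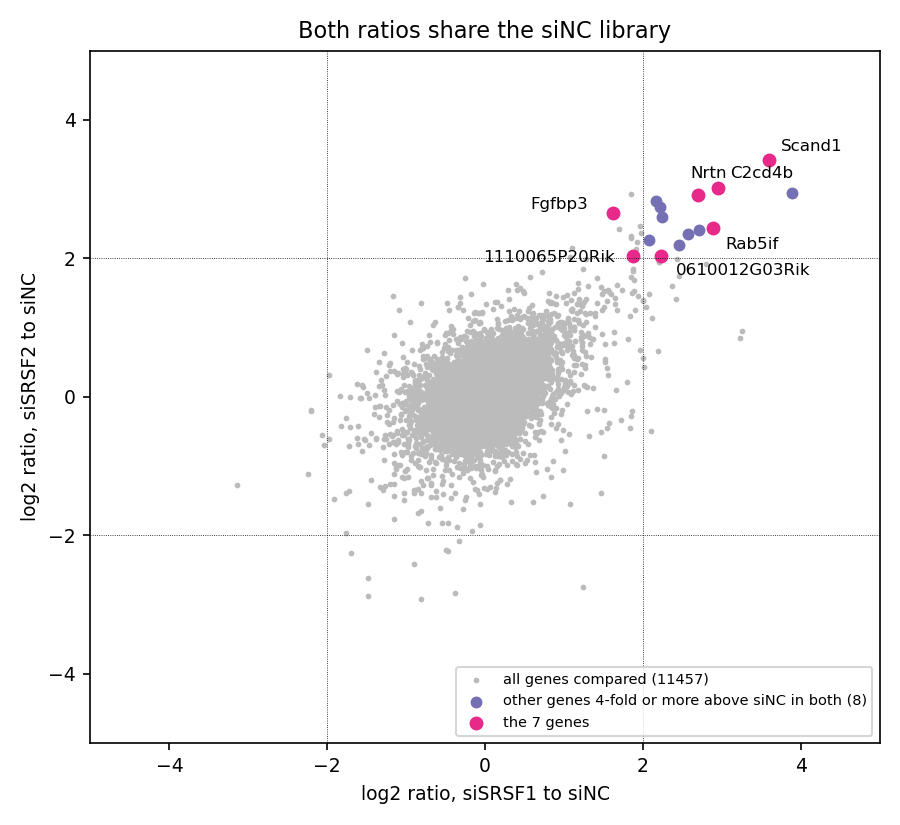
Scaled log2 ratio of siSRSF1 to siNC (x axis) against siSRSF2 to siNC (y axis) for the 11457 genes compared in both, with the 7 genes labelled and dotted lines at 4-fold. Scand1 lies at 3.59 and 3.43, and Fgfbp3 (1.62) and 1110065P20Rik (1.88) fall short of 4-fold on the x axis; both axes share siNC, so the slope of the cloud is not a result.

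The siRNA libraries were compared with each other directly, a contrast without siNC. Of all 11705 compared genes, 4.37% were called apart in either direction. Of the 7 genes, 1 was: Fgfbp3, 2.05-fold (1.60 to 2.64) higher in siSRSF2. Rab5if had a ratio of 0.735 (0.645 to 0.837) and 0610012G03Rik of 0.874 (0.774 to 0.985), intervals that excluded 1 at less than 2-fold. For Scand1 the ratio was 0.890 (0.713 to 1.11), for C2cd4b 1.04 (0.799 to 1.37), for Nrtn 1.16 (0.954 to 1.41) and for 1110065P20Rik 1.12 (0.930 to 1.35). These intervals include 1 and leave room for differences of up to 1.41-fold.

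Levels were set against each other between genes on the authors' FPKM, which divides by the length of each gene. In siNC, 0610012G03Rik led at 5.84 (Poisson interval 4.78 to 7.05), and its interval lay above those of the other genes. Nrtn followed at 2.003, 1110065P20Rik at 1.98, Rab5if at 1.73, Fgfbp3 at 1.20, Scand1 at 1.18 and C2cd4b at 0.713, and the intervals of neighbours in this order overlapped. In siSRSF1, 0610012G03Rik led again at 27.4. Scand1 at 14.7, Nrtn at 13.2 and Rab5if at 12.8 overlapped next, then 1110065P20Rik at 7.31 with C2cd4b at 5.67, and Fgfbp3 was lowest at 3.74. In siSRSF2 the order was 0610012G03Rik at 24.7, Nrtn at 15.8, Scand1 at 13.5, Rab5if at 9.73, 1110065P20Rik at 8.43, Fgfbp3 at 7.92 and C2cd4b at 6.11. 0610012G03Rik thus led in each library on this measure, and much of the order below it was not resolved by these counts. The order, its first place included, also depends on the length used. The FPKM divides Rab5if by 2871 bases, while its transcript described below has 1045. For 0610012G03Rik both lengths are 1445 bases.

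The 7 genes lie on 6 chromosomes, in GRCm38 coordinates. Scand1 (ENSMUSG00000046229) spans chr2:156311846-156312747 on the minus strand, with 803 bases in the table's length column. Rab5if (ENSMUSG00000027637) spans chr2:156863128-156873563 on the plus strand, 2871 bases. 1110065P20Rik (ENSMUSG00000078570) spans chr4:124849080-124851196, minus, 2069 bases. C2cd4b (ENSMUSG00000091956) spans chr9:67759437-67760930, plus, 1327 bases. 0610012G03Rik (ENSMUSG00000107002) spans chr16:31947050-31948494, minus, 1445 bases. Nrtn (ENSMUSG00000039481) spans chr17:56751325-56757530, minus, 1023 bases. Fgfbp3 (ENSMUSG00000047632) spans chr19:36917550-36919615, minus, 1772 bases. The length column equalled the union of a gene's exons in 98.2% of matched lines, so it is an exonic length, UTRs included.

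These were short genes with few exons. The transcript with the longest coding sequence was 759 bases for Scand1, 1023 for Nrtn, 1045 for Rab5if, 1223 for 1110065P20Rik, 1327 for C2cd4b, 1445 for 0610012G03Rik and 1772 for Fgfbp3. The median of all compared genes was 3056 bases, and 4 of the 7 lay below 1263 bases, the length under which the shortest 10% of compared genes fall. 0610012G03Rik had 1 exon, Scand1, C2cd4b and Fgfbp3 had 2, Nrtn and 1110065P20Rik had 3 and Rab5if had 4, against a median of 9. A gene with 1 exon has no intron to splice.

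Base composition set 6 of them apart. Coding GC content was 75.6% in Scand1, 74.3% in C2cd4b, 72.6% in 0610012G03Rik, 72.4% in 1110065P20Rik, 72.3% in Nrtn and 70.8% in Fgfbp3. The lowest of these, that of Fgfbp3, exceeded 99.5% of compared genes, whose median was 52.9%. Rab5if was the exception at 53.2%, above 51.9% of them. Its 5' untranslated region was GC-rich at 79.0%, above 92.7% of the compared genes that have one.

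Over the whole transcript the picture was more mixed. Scand1 (68.4%), C2cd4b (68.9%), Nrtn (72.8%) and 1110065P20Rik (68.4%) remained near the top, while Fgfbp3 (52.5%), 0610012G03Rik (54.5%) and Rab5if (53.7%) did not. The observed to expected ratio of CpG dinucleotides in the transcript was high in all 7. It ran from 0.680 in 0610012G03Rik to 0.990 in C2cd4b, against a median of 0.423, and each value exceeded at least 94.5% of compared genes.

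Promoter composition was not shared. In windows from 250 bases before to 50 after the start (RefSeq, GRCm38.p6), which matched all 7 genes, GC content ran from 46.7% for Fgfbp3 to 76.7% for one of the 1110065P20Rik starts. The median over compared genes was 61.3%. The 250 bases before the start are shown for Rab5if and Fgfbp3, the gene with an ordinary coding sequence and the gene with the least GC-rich promoter, with CpG dinucleotides in capitals.
Rab5if: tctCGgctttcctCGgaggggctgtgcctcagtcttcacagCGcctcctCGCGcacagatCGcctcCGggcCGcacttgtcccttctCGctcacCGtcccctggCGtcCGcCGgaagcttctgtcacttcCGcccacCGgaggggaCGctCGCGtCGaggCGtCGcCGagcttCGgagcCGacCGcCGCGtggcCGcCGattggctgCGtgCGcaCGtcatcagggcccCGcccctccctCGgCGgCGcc
Fgfbp3: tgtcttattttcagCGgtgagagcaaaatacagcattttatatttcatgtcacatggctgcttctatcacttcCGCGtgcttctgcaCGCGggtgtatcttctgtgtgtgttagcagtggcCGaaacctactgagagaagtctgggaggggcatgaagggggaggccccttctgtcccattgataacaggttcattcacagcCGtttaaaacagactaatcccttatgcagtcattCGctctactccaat
They lie at chr2:156862872-156863121 on the plus strand for Rab5if and at chr19:36919600-36919849 on the minus strand for Fgfbp3. Rab5if has 36 CpG dinucleotides there and Fgfbp3 has 8. The motif TATAAA or its reverse complement TTTATA was found in 1 of the 7 genes, Fgfbp3, 214 bases before the start, and in 13.6% of all 32851 windows. The letters GGGCGG or CCGCCC were in windows of 5 genes (Scand1, Rab5if, 1110065P20Rik, 0610012G03Rik and Nrtn) and in 35.7% of all windows.

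Coding GC content was then related to the ratios over all other compared genes, an analysis chosen after the members' values were seen. With the 7 genes left out, the median ratio of siSRSF1 to siNC was 0.937 among 190 genes under 40% coding GC, 0.995 at 50 to 55%, 1.33 at 65 to 70% and 1.53 among 59 genes at 70% or more. For siSRSF2 to siNC the same medians were 0.951, 0.998, 1.36 and 1.63. Of genes at 70% or more, 35.6% were called higher in siSRSF1 and 38.3% in siSRSF2, and 0 were called lower in either. The ratio of siSRSF2 to siSRSF1 stayed between 0.970 and 1.05 in every class. At 70% or more the median gene was thus lower in siNC, at smaller folds than those of the 6 genes. This did not hold throughout: in transcripts of 3000 bases or more the medians were 0.958 in siSRSF1 and 1.32 in siSRSF2.

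**Figure D3:**
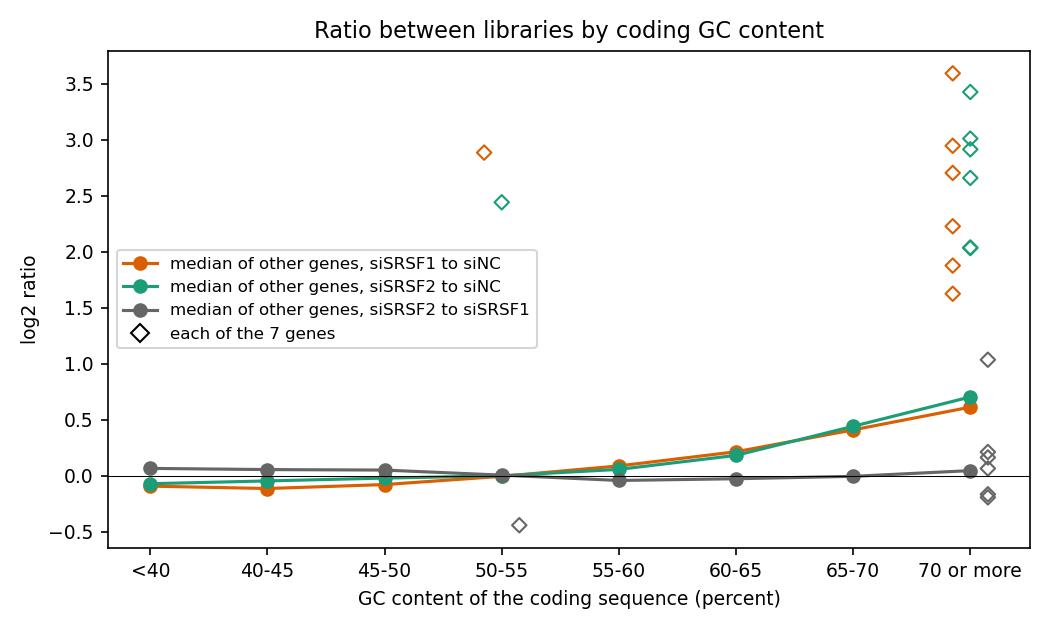
Median log2 ratio by coding GC content for all compared genes other than the 7 (lines) and the value of each of the 7 genes (diamonds), for the 3 pairs of libraries. The medians against siNC rise to 0.61 and 0.70 at 70% or more while that between the siRNA libraries stays near 0, and Rab5if stands alone in the 50 to 55% class.

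Across genes, Spearman's rho between coding GC content and the log2 ratio was 0.301 for siSRSF1 to siNC over 11572 genes, 0.188 for siSRSF2 to siNC over 11582 and -0.090 for siSRSF2 to siSRSF1 over 11674. Genes of 1 library share its preparation and depth and are not independent replicates, and the first pair of values shares siNC. What set this relation was not tested.

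The share called higher differed with length as well, in classes also set after the data were seen. Among other genes at 70% or more, 5 of 12 with transcripts under 1500 bases and 14 of 31 with 1500 to under 3000 bases were called higher in siSRSF1, against 2 of 20 with 3000 bases or more. In siSRSF2 these were 6 of 12, 14 of 31 and 3 of 20. The 51 genes under 1500 bases at 65 to 70% had similar shares, with 23 called higher in siSRSF1 and 17 in siSRSF2. Below 60% coding GC the shares were smaller in every length class, but also fell with length. Under 1500 bases, 3.17% were called higher in siSRSF1 and 2.29% in siSRSF2. These shares were 1.37 and 1.89% at 1500 to under 3000 bases, and 1.20 and 1.63% at 3000 bases or more. Over all compared genes, Spearman's rho between the length column and the log2 ratio was -0.192 for siSRSF1 to siNC and -0.020 for siSRSF2 to siNC. Long GC-rich genes near a ratio of 1 included Marcks, a membrane-associated substrate of protein kinase C, with 1605, 1682 and 1838 reads and 75.6% coding GC. Insm1, of the same class, was called higher in both, with 1882, 6103 and 5486 reads and ratios of 2.84 and 2.45. The class with a short transcript and a GC-rich coding sequence is that of Scand1, C2cd4b, Nrtn, 1110065P20Rik and 0610012G03Rik, while Fgfbp3 fell in the middle length class.

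**Figure D4:**
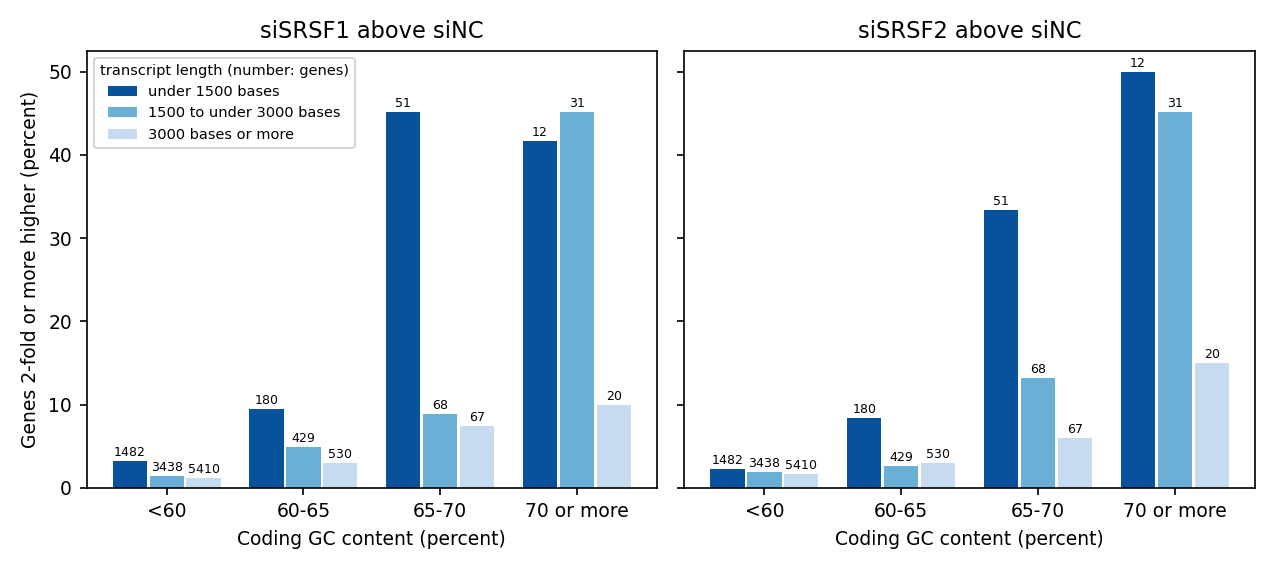
Percent of compared genes, the 7 left out, that were called higher in siSRSF1 (left) or siSRSF2 (right) than in siNC, by coding GC content and transcript length, with the number of genes above each bar. At 70% or more the bars reach 41.7 and 50% in transcripts under 1500 bases, from 12 genes, and stand at 10 and 15% at 3000 bases or more, from 20 genes.

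The ratios were recomputed after a lowess fit on coding GC content had been subtracted, also chosen after seeing the data. All 7 genes were still called higher in both siRNA libraries. The siSRSF1 ratio of Scand1 went from 12.1 to 6.83, of C2cd4b from 7.71 to 4.55, of Nrtn from 6.51 to 4.11 and of Fgfbp3 from 3.08 to 2.04. That of 1110065P20Rik went from 3.67 to 2.31 and of 0610012G03Rik from 4.68 to 2.92. Rab5if went from 7.39 to 7.38. In siSRSF2 the corrected ratios were 6.36 for Scand1, 4.95 for C2cd4b, 4.91 for Nrtn, 4.29 for Fgfbp3, 5.504 for Rab5if, 2.67 for 1110065P20Rik and 2.64 for 0610012G03Rik. The 6 genes with a GC-rich coding sequence had smaller ratios in both contrasts, and Rab5if, with an ordinary coding GC content, kept its size. Both follow from the fit, which included the 7 genes and lowers ratios wherever the trend with coding GC content is raised. They are therefore no separate result, and what set the ratios was not tested.

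Most genes beside them on the chromosomes did not share the pattern. Of the 14 nearest compared neighbours, 1 on each side of each gene, 1 was called higher in siSRSF1 and 2 in siSRSF2. Over all compared genes 2.4 and 2.51% were, and 14 genes are too few to set such counts against those shares. The median ratios of the neighbours were 1.04 and 1.08. Those called were C2cd4a, the paralogue next to C2cd4b, in both contrasts, and Cnbd2 beside Scand1 in siSRSF2. Scand1 and Rab5if both lie on chromosome 2, and between them Epb41l1 had ratios of 0.907 and 0.927, Aar2 of 1.01 and 1.03 and Dlgap4 of 1.10 and 1.24.

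Some of these genes start head to head with a neighbour. Ncbp2, which encodes a subunit of the nuclear cap-binding complex, starts 19 bases from the start of 0610012G03Rik on the opposite strand. It had 845, 939 and 1095 reads, with ratios of 0.975 and 1.09. Yrdc, an enzyme of tRNA modification, overlaps 1110065P20Rik by 518 bases at the start and had 558, 687 and 647 reads, with ratios of 1.08 and 0.973. At both places the neighbour was level while the gene itself was several times lower in siNC. An opposite-strand start lay within 1000 bases for 5 of the 7 genes, against 27.3% of 11752 compared genes.

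**Figure D5:**
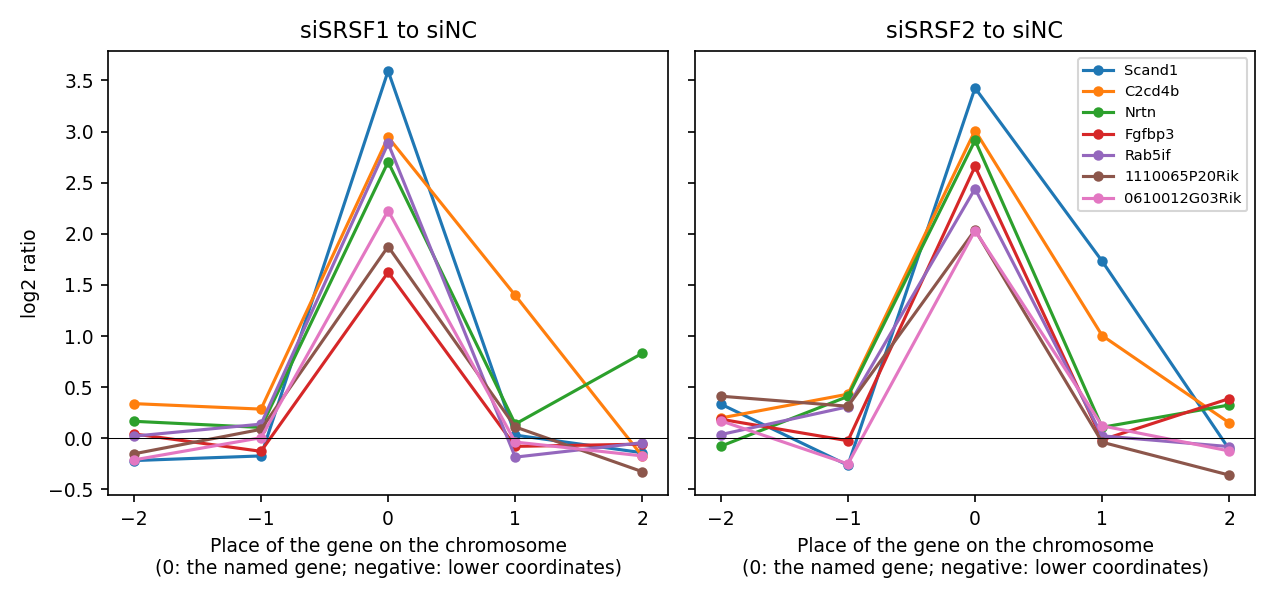
Log2 ratio of siSRSF1 (left) and siSRSF2 (right) to siNC for each of the 7 genes, at place 0, and for the nearest 2 compared genes on each side. Each line peaks at place 0; the neighbours above 1 on this scale are C2cd4a beside C2cd4b (1.40 and 1.00) and, on the right, Cnbd2 beside Scand1 (1.73).

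Overlap also limits what the reads of 4 genes can be assigned to, since no source used here says whether strand was kept. Scand1 overlaps Cnbd2 by 406 bases, and Cnbd2 had 6, 7 and 25 reads. Rab5if overlaps Sla2 by 1107 bases, and Sla2 had 0 reads in all 3 libraries. 1110065P20Rik overlaps Mtf1 by 721 bases as well as Yrdc, and Mtf1 had 535, 648 and 792 reads. C2cd4b overlaps the noncoding gene M5C1000I18Rik by 794 bases, which was not analysed here. Without strand, reads from the shared bases cannot be told apart. Such overlap was common, in 44.8% of compared genes.

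Near-identical sequence elsewhere was looked for with BLAST at 90% identity or more. Nrtn and Fgfbp3 had none, and the matches of Scand1, C2cd4b, Rab5if and 1110065P20Rik were the overlapping genes named above. 0610012G03Rik matched transcripts of 33 other genes, over at most 163 bases each, and all matches lay in bases 1096 to 1445 of its 1445-base transcript. Reads from that end are uncertain in origin, since no source used here says how multiply aligned reads were counted.

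Most compared relatives of the named proteins were not called higher than siNC. Over all compared genes 2.4% were called higher in siSRSF1 and 2.51% in siSRSF2, so lists this short would hold few calls in any case. In the GDNF family, Nrtn was left out and 3 of the other 8 genes were compared. Gfra3, the receptor subunit for artemin, was higher in siSRSF1, with 26, 104 and 36 reads and a ratio of 3.46 (2.26 to 5.62), and stood at 1.16 (0.683 to 2.005) in siSRSF2. Artn was lower in siSRSF2 at 0.499 (0.234 to 0.986), where 1.04% of compared genes were called lower, from 24 and 14 reads. Gfra1 had 56, 69 and 77 reads. The receptor kinase gene Ret had 2, 3 and 0 reads and Gfra2, the receptor that binds neurturin, 0, 1 and 0. Neurturin RNA was thus detected with almost no RNA for its receptor pair at this depth.

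In the C2cd4 family, C2cd4a had 32, 97 and 77 reads and was called higher in both, at 2.63 (1.77 to 4.10) and 2.01 (1.32 to 3.15). C2cd4c had 413, 576 and 530 reads, with ratios of 1.22 and 1.08. C2cd4d had at most 1 read. The paralogue beside C2cd4b was therefore low in siNC too, at a smaller fold, and the more abundant C2cd4c was nearly level. They also differ in composition and length. C2cd4a has 74.1% coding GC in a transcript of 1395 bases, and C2cd4c 64.0% in 6729 bases. Other genes under 1500 bases at 70% or more had median ratios of 1.83 and 1.97. What set the ratios of this family was not tested.

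Of 15 FGF ligands, receptors and binding proteins other than Fgfbp3, 7 were compared and 0 were called higher than siNC. Over all compared genes 2.4% were in siSRSF1 and 2.51% in siSRSF2, so 0 of 7 is near those shares. Fgf2, a ligand, was lower in siSRSF1, where 1.2% of compared genes were, with 31, 8 and 25 reads and a ratio of 0.238 (0.090 to 0.503). Fgfr2, the receptor with the most reads, had 219, 204 and 397, with ratios of 0.817 and 1.52. No gene of that list that passed the read minimum followed Fgfbp3. Below the minimum, Fgf7 had 1, 12 and 14 reads, with ratios of 7.49 (1.56 to 450) and 8.38 (1.79 to 497).

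Of 21 other SCAN domain genes, 20 were compared and 0 were called in either direction against siNC, with median log2 ratios of -0.05 and 0.13. Over all compared genes 2.4 and 2.51% were called higher and 1.2 and 1.04% lower, so 0 of 20 is near those shares. Peg3, the most abundant, had 43099, 50849 and 43769 reads. The largest siSRSF1 ratio among them was that of Mzf1, 1.45 (1.08 to 1.99). Of 19 RAB5 regulators and translocon proteins other than Rab5if, 17 were compared. Rin1, a RAB5 exchange factor with 24, 11 and 15 reads, was called lower in siSRSF1 at 0.413 (0.178 to 0.852), and 0 were called in siSRSF2. Tmco1, which binds RAB5IF in the human complex, had 818, 1052 and 1153 reads, with ratios of 1.13 and 1.18. Scand1 and Rab5if had larger ratios than any compared gene of these lists. They were chosen for high ratios in these contrasts, so nothing is read from that order.

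Other genes followed the same pattern. At least 4-fold above siNC in both siRNA libraries, with both intervals above 1, were 13 of 11457 genes compared in both (0.113%), of which 5 were among the 7. Fgfbp3 and 1110065P20Rik were short of 4-fold in siSRSF1. The other 8 were Pcsk1n, Nr2f6, Mrps34, Tmem238, Endog, Nudt6, Iqank1 and Pdxp. The median coding GC content was 71.5% over the 13 and 66.9% over the 8, against 52.9% over all compared genes. The counterpart, at least 4-fold higher in siNC than in both others, held 0 genes. For siSRSF1 there were 2 such genes low and 15 high, and for siSRSF2 3 low and 8 high. The median coding GC content of those sets lay between 49.9 and 52.7%. The sets are small and most rest on few reads. At least 100 reads in a higher library were held by 9 of the 13 genes low in siNC. For siSRSF1 this was so for 0 of 2 low and 5 of 15 high, and for siSRSF2 for 3 of 3 low and 0 of 8 high. These counterparts were counted after the data were seen.

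Of these, Pcsk1n had by far the most reads. It encodes proSAAS, an inhibitor of prohormone convertase 1 in endocrine cells, and had 1586, 8388 and 12596 reads, with ratios of 4.64 (4.40 to 4.90) and 6.67 (6.33 to 7.03). Its coding GC content was 72.1%. The low siNC level was thus not limited to genes with few reads.

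Closest to the median position of the 7 genes in the plane of both log2 ratios, among genes with at least 100 reads in 1 siRNA library, were Mrps34, Tmem238, Pcsk1n, Nr2f6, Cebpb, Cox11, Rab43 and Slco1a5. Distances ran from 0.25 for Mrps34 to 0.95 for Slco1a5 on the log2 scale over 3 libraries. Mrps34, a protein of the small mitochondrial ribosome subunit, had 37, 278 and 237 reads. Cebpb, a bZIP transcription factor with 1 exon and 73.4% coding GC, had 22, 99 and 148 reads. Slco1a5, an organic anion transporter, had 17, 109 and 69 reads at a coding GC content of 42.2%. Its span contains Iapp on the opposite strand, with 253196, 236923 and 217870 reads, so the origin of its few reads is uncertain. Cox11 had 20, 107 and 93 reads at a coding GC content of 56.1%. Both were low in siNC without a GC-rich coding sequence, as Rab5if was, but fell short of 4-fold in siSRSF2, at 3.34 for Slco1a5 and 3.84 for Cox11.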

How the data were processed

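RNA from 3 MIN6 libraries was measured by sequencing. The submitters' processing notes name Bowtie2 2.4.2 and the build mm10 (GRCm38). No source used here gives the counting tool or the annotation release. The deposited table gives, per the file headers, a whole-number read count and an FPKM for each gene and library. The FPKM computed by the authors equalled the deposited count divided by length and column total within 0.00045%. Lines sharing a symbol (67) were summed.

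Counts were scaled by TMM (edgeR 4.0.16, R 4.3.3; factors 0.991, 0.990 and 1.02). Ratios used a prior of 0.5 reads, split by depth, and exact Clopper-Pearson 95% intervals. Coding GC content, lengths and exons came from GENCODE M21 for 99.7% of 11756 compared genes, promoters from RefSeq, and similarity from BLAST 2.17.0. Corrections used lowess (statsmodels 0.14.6). Each group has 1 library, so no test was run and edgeR fitted no model.

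The genes and lists were chosen with earlier results of these data known. Named genes were the 7 genes, Srsf1 and Srsf2, nearest and overlapping neighbours, similar transcripts, the 8 genes closest in both ratios, and list members with at least 20 reads in 1 library, of which some are left out. Genes outside that rule (Marcks, Insm1, Ret, Gfra2, Fgf7, C2cd4d, Sla2, the marker genes, the other 4-fold genes and those between Scand1 and Rab5if) were named after their values were seen.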

Additional observations from a re-analysis of the deposited data

How the results depend on the processing

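All 7 genes were called higher than siNC in both siRNA libraries, and 1 of 7 apart between those libraries, under every setting tried (plain library totals, DESeq2 1.42.0 size factors, a prior of 2 reads, minimums of 10 and 50 reads or none, and lowess on transcript GC, length or coding GC). The calls against siNC restate how the genes were chosen, so they are given as description only. The read minimums could not change a call of the 7, as all had more than 50 reads in both siRNA libraries. Counts over all genes moved with the read minimum. With at least 50 reads, 167 genes were higher in siSRSF1 (279 with 20 reads), 187 in siSRSF2 (291) and 305 apart between the siRNA libraries (511). With no minimum, 431 were higher in siSRSF1 and 844 apart. The 13 genes at 4-fold in both became 24 with at least 10 reads, 34 with no minimum and 8 after lowess on coding GC, an alternative added after seeing the data. More or fewer genes compared is part of how the read minimum works; the cause of the fall after lowess was not tested. Lowess on whole-transcript GC took the siSRSF1 ratio of Nrtn to 3.57 and of 1110065P20Rik to 2.36. No scaling moved the median log2 ratio of all genes by 0.1.

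No paired analysis was possible because each group has 1 library. For the same reason no replicate could be left out and the spread between cultures is unknown. Depth limits Scand1 and C2cd4b most, since their control level rests on 12 reads each.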
